A study of Mus musculus with 9 samples.

Results

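The MYC, MAX and MXD network of transcription factors was followed through 2 kinds of data from mouse embryonic fibroblasts (MEFs), namely RNA-seq of cells sorted for low or high MYC and a table of TACh-seq reads, which mark nuclease-accessible chromatin. The 10 genes described, Myc, Mycn, Max, Mxd1, Mxd3, Mxd4, Mnt, Mlx, Mlxip and Mga, were taken by name from a table of 19769 genes, and all 10 were found. The RNA came from primary MEFs of Myc-Egfp+/+ mice, in which MYC is made as a fusion with GFP. Cells of both groups received 20 µM of the proteasome inhibitor MG-132 for 6 h, were sorted by GFP into low-MYC and high-MYC cells, were left to attach overnight, and gave 2 technical replicates a group. The groups were thus chosen by the MYC protein itself, every cell had been treated with the inhibitor, and no untreated or unsorted sample was compared. The 4 TACh-seq samples were 2 of WT MEFs and 2 of KOKD MEFs, the latter being Fubp1 knockout cells given Fubp2 siRNA, and transfections used 100 nM of Fubp2 or non-target siRNA for 48 h. Their chromatin was digested with Cyanase for 3 min, and their labels name a single table of reads without a column for the library, so WT and KOKD cells were not compared. The name of that table points to WT cells, but which libraries its reads come from could not be worked out. The last of the 9 samples was FUBP1 ChIP-seq of MEFs at steady state.

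The proteins of this network pair through helix-loop-helix and leucine zipper domains. MYC and MYCN bind DNA as partners of MAX at the E-box and recruit coactivators, whereas MXD proteins and MNT take MAX as their partner at the same sites and recruit the SIN3 and HDAC corepressors. MGA also binds MAX and belongs to the PRC1.6 Polycomb complex, and MLX is the partner of MLXIP (MondoA), which responds to glucose metabolites, and also of some MXD proteins and MNT.

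The E-box has the letters CACGTG, which read the same on both strands. It was searched for in the RefSeq promoters of the mm10 assembly GRCm38.p6, each 250 bases before to 50 bases after the start of a gene. Of the 10 network genes, 9 matched a promoter by symbol and Myc did not. CACGTG stood in 4 of the 9, those of Mxd4, Mnt, Mlx and Max, and in 7.15% of all 32851 promoters. A variant E-box, CACGCG on either strand, stood in 1 of the 9, that of Mga, and in 9.27% of all promoters. E2F-type letters (TTTCCCGC, TTTCGCGC, TTTGGCGC or TTTGCCGC, on either strand) stood in 1 of the 9, that of Mycn, and in 2.26% of all promoters, while the TATA box letters TATAAA were in 0 of the 9 and in 13.6% of all promoters. The 9 promoters held 55 to 76.7% GC and 14 to 39 CpG, against medians of 52.7% and 7 over all promoters. The shares thus compare windows of unlike composition, and a link to the network was not tested. The motifs were chosen after expression and read values had been seen, and a match is a description of the letters in the window. The windows around each match are given 5′ to 3′ on the strand of the gene, with the matched letters in capitals, because the proteins of this network, and in the case of Mycn the E2F factors, are known to read such letters in general.
Mxd4 (chr5:34187884-34187960, minus strand): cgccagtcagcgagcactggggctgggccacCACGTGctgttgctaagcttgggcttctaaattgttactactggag
Mnt (chr11:74830761-74830846, plus strand): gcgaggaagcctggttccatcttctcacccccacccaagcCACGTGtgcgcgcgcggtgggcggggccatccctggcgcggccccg
Mlx (chr11:101087210-101087288, plus strand): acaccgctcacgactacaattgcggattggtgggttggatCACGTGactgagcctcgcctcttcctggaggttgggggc
Max (chr12:76962237-76962291, minus strand): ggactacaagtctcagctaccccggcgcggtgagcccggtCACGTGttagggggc
Mga (chr2:119897167-119897239, plus strand): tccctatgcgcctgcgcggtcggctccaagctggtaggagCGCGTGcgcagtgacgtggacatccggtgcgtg
Mycn (chr12:12941957-12942059, minus strand): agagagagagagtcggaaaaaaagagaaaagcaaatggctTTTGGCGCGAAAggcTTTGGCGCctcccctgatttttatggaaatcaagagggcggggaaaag
Counted from the RefSeq start, the E-box began at position -219 in Mxd4, -123 in Mnt, -40 in Mlx and -3 in Max, where it spans the start itself. The variant letters in Mga began at -21. In Mycn the E2F-type letters began at -183, -179 and -168, and the first match overlaps the second.

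The deposited RNA values are normalized FPK, fragments per kilobase of transcript divided by the library's ERCC spike-in score, and the amount of ERCC RNA was set by the number of cells. Levels of different genes can therefore be compared per length, and libraries per cell. Summed over all genes, normalized FPK was 46321 and 48291 in the low-MYC replicates and 102853 and 109090 in the high-MYC replicates. The depth in reads was not given, and the whole-number steps of low values, of which 35.7 to 38.1% lay within 0.05 of a whole fragment, served only for rough fragment numbers. Fibroblast markers were high in all libraries, with a summed level of 407 and 414 in low-MYC and 993 and 1022 in high-MYC replicates over 15 of 15 markers. The macrophage list went from a summed level of 0.949 and 1.30 to 30.2 and 31.6 over 15 of 15 markers, and its Adgre1, C1qa and Tyrobp were listed at 0 in low-MYC replicate 1. Of that list 11 markers were tested, and 10 of them also rose against the median gene at an adjusted p of 0.01 (limma with Benjamini-Hochberg). Of all tested genes 2.29% changed in either direction, but only Cd68 and Cd14, 2 of the 11, reached 0.1 in low-MYC cells. The others entered the test through their high-MYC level, which favours a rise, so their share cannot be weighed against 2.29%. Cd68 passed 0.01 (adjusted p = 0.00394) and Cd14 did not (adjusted p = 0.0212, limma with Benjamini-Hochberg). By the same test 3 of the 15 fibroblast markers rose, and the median relative log2 fold change of that list was 0.27. Endothelial and epithelial markers stayed low, with sums of at most 0.328 and 0.0551, and lymphocyte markers were not analysed here. All 10 network genes were compared along with these markers, whose part in the results was not tested. In such bulk samples more cells of a type and more RNA per cell cannot be told apart.

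On the spike-in scale every network gene was higher in high-MYC cells. The ratio of group means ran from 1.79 for Mycn to 2.60 for Mxd3, with a median of 2.25. All 10 passed an adjusted p of 0.01 (limma on log2(normalized FPK + 0.1), Benjamini-Hochberg), where 97.1% of the 11870 tested genes were called higher. The libraries of the groups did not overlap for any of the 10, as for 99.1% of all tested genes. The median log2 fold change was 1.03 over the network and 1.03 over all tested genes, which are equal to 2 decimals, and with libraries set to the same median gene 5 of the 10 differences were positive and 5 negative, of which those of Max, Mlxip, Mxd1 and Mnt were near 0 and changed sign under at least 1 alternative setting. The replicates are technical, and p-values measure the spread between these libraries only.

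**Figure D1:**
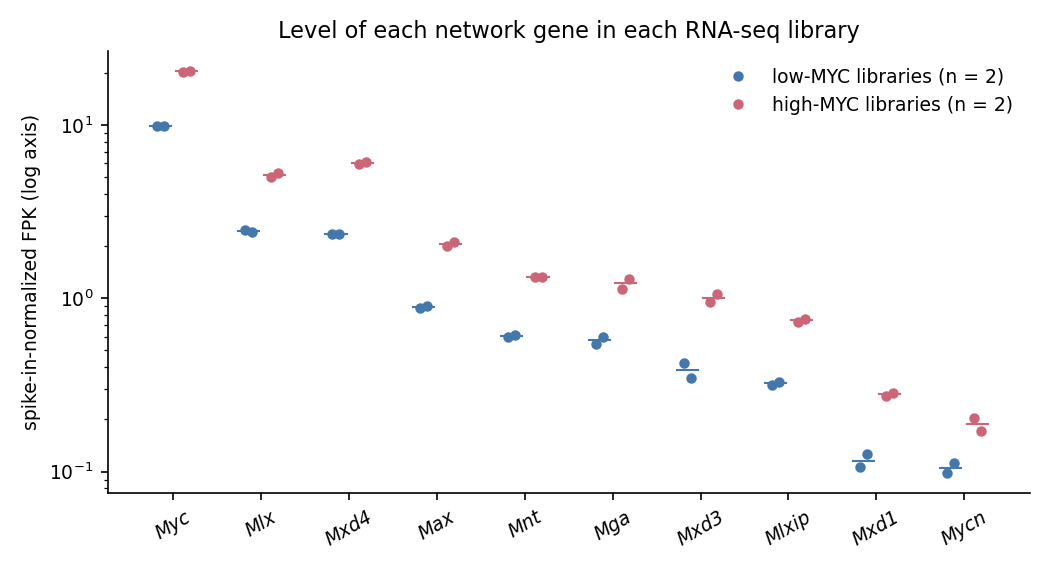
Spike-in-normalized FPK (log axis) of the 10 network genes in each RNA-seq library, with 2 low-MYC (blue) and 2 high-MYC (red) libraries as points and the group mean as a bar. Myc lies highest in both groups (9.84 and 20.4), Mycn lowest (0.106 and 0.189), and every high-MYC point lies above both low-MYC points of its gene.

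Myc, the factor on whose fusion protein the cells were sorted, lies on chr15:61985391-61990374 (plus strand, mm10). Its level was 9.81 and 9.86 in the low-MYC replicates and 20.3 and 20.5 in the high-MYC ones. The groups were far apart against replicates that nearly coincided, and on the spike-in scale Myc mRNA was thus higher in the cells gated for more MYC protein. The log2 fold change was 1.04 (SE 0.0388, adjusted p = 1.04e-05, limma with Benjamini-Hochberg). Myc was the most abundant of the 10 mRNAs and accounted for 55.8% of their summed level in the low-MYC group and 53.1% in the high-MYC group.

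Mycn, the paralog best known from neural and embryonic tissue, lies on chr12:12936093-12941914 (minus strand). It measured 0.0987 and 0.112 at low MYC and 0.205 and 0.173 at high MYC, from roughly 42 to 69 fragments a library. Myc was 93.2-fold above Mycn in the low-MYC group and 108-fold above it in the high-MYC group. The log2 fold change of Mycn, 0.49 (SE 0.0801, adjusted p = 0.00164, limma with Benjamini-Hochberg), was the lowest of the network, and the added pseudocount of 0.1, close to its own level, narrows it on this scale. The ratio of means without a pseudocount was 1.79.

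Max, the shared partner of MYC, MXD, MNT and MGA, lies on chr12:76937269-76962201 (minus strand). It measured 0.884 and 0.907 at low MYC and 1.99 and 2.10 at high MYC, without overlap, at a log2 fold change of 1.11 (SE 0.0499, adjusted p = 1.14e-05, limma with Benjamini-Hochberg). Its 2 replicates in each group lay close together.

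Among the MAX partners that recruit SIN3 and HDAC, Mxd4 was the most abundant. Mxd4, on chr5:34173883-34187720 (minus strand), measured 2.34 and 2.36 at low MYC and 5.93 and 6.12 at high MYC. Its log2 fold change of 1.32 (SE 0.0423, adjusted p = 1.04e-05, limma with Benjamini-Hochberg) lay at percentile 93.8 of all tested genes and was the highest of the network with this pseudocount, whereas by the ratio of means Mxd3 (2.60) stood above Mxd4 (2.56). Mnt, the broadly expressed MYC antagonist on chr11:74830920-74845725 (plus strand), measured 0.596 and 0.612 against 1.33 and 1.33, a log2 fold change of 1.03 (SE 0.0467). Mxd3, known from proliferating cells in S phase and located on chr13:55325168-55329823 (minus strand), measured 0.425 and 0.349 against 0.949 and 1.06. Its low-MYC replicates were the furthest apart of the 10 genes in proportion to their level, and its log2 fold change was 1.18 (SE 0.0969). Mxd1, known from terminal differentiation and located on chr6:86647042-86669161 (minus strand), was the scarcest of the 4 at 0.106 and 0.126 against 0.273 and 0.285, a log2 fold change of 0.81 (SE 0.0695). The pseudocount of 0.1, close to the low-MYC level of Mxd1, narrows its fold change. With nothing added to the levels, the group means of Mxd1 differed 2.41-fold and those of Mnt 2.21-fold. The place of Mxd1 below Mnt thus depends on the pseudocount, while Mxd3 and Mxd4 stood above both either way. These 4 genes together summed to 3.47 and 3.45 at low MYC and 8.49 and 8.80 at high MYC.

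Mlx, on chr11:101087277-101092207 (plus strand), measured 2.48 and 2.41 against 5.03 and 5.29, a log2 fold change of 1.05 (SE 0.0476). Mlxip, which encodes its partner MondoA and lies on chr5:123394798-123457932 (plus strand), measured 0.316 and 0.331 against 0.725 and 0.764, a log2 fold change of 1.00 (SE 0.0555). Mlx mRNA was thus well above Mlxip mRNA in every library. Mga, on chr2:119897228-119969581 (plus strand), measured 0.546 and 0.601 against 1.14 and 1.30, a log2 fold change of 0.97 (SE 0.0814). The groups did not overlap for any of these 3 genes. Overlapping transcription units could share reads with some members. On the same strand Max overlaps Gm47218, Mxd1 overlaps Gm44292, and Mlxip overlaps Gm42907, Gm42908 and Gm43813. The strand setting of the quantification is not given in the sources used here, so genes on the other strand count as well. Mxd3 overlaps Prelid1 and Mlx overlaps Psmc3ip on the opposite strand, and Mxd4 and Mlxip each overlap an antisense gene.

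In low-MYC cells the order of levels was Myc, Mlx, Mxd4, Max, Mnt, Mga, Mxd3, Mlxip, Mxd1 and Mycn. The replicates of Mnt and Mga overlapped there, as did those of Mxd1 and Mycn, so the order within these pairs is not resolved. In high-MYC cells no neighbours overlapped, and the order was the same except that Mxd4 (6.03 ± 0.132, SD, n = 2) stood above Mlx (5.16 ± 0.183, SD, n = 2). In low-MYC cells Mlx (2.45 ± 0.0544, SD, n = 2) had stood just above Mxd4 (2.35 ± 0.0158, SD, n = 2).

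Nearly all genes were higher in high-MYC cells on the spike-in scale, which rests on the spike-in score of each library. A second comparison therefore asked which members departed from that shared shift. Each library was set to the same median over the tested genes, which took the median difference over the tested genes from 1.03 to -0.0039 in log2 units. None of the 10 genes passed an adjusted p of 0.01 (limma with Benjamini-Hochberg), against 2.29% of tested genes. At an adjusted p of 0.05, 1 of the 10 passed, against 12.9% of tested genes, and 2 had an unadjusted p under 0.05, against 33.1%. The rescaled libraries did not overlap for 6 of the 10, against 63.3% of tested genes. By these shares the network held no more departures than the table at large.

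The gene that passed at 0.05 was Mxd4. Its rescaled level was 3.56 and 3.52 at low MYC and 4.07 and 3.94 at high MYC, a relative log2 fold change of 0.17 (95% interval 0.09 to 0.26, adjusted p = 0.0416, limma with Benjamini-Hochberg). The direction held without each library in turn, at 0.15 to 0.20, while the adjusted p was then 0.0812 to 0.191. Under the other settings tried it was 0.0357 to 0.0612 (limma with Benjamini-Hochberg). Mxd3 had the same relative log2 fold change of 0.17, and both genes lay at percentile 87.5 of all tested genes on this scale. The interval of Mxd3, -0.10 to 0.45, spanned 0, however. Its value was 0.32 without low-MYC replicate 1 and 0.045 without low-MYC replicate 2.

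Myc stood on the other side. Its rescaled level was 14.9 and 14.7 at low MYC and 13.9 and 13.2 at high MYC, a relative log2 fold change of -0.13 (95% interval -0.23 to -0.02). The rescaled groups did not overlap, the unadjusted p was 0.0262 and the adjusted p 0.105 (limma with Benjamini-Hochberg), so the difference did not pass. Max was the member nearest to the median gene, at 1.34 and 1.35 against 1.37 and 1.35 after rescaling, a relative log2 fold change of 0.01 (95% interval -0.06 to 0.09) whose sign depended on the setting (-0.02 to 0.02 over the settings tried). The remaining members ran from -0.20 for Mycn (95% interval -0.42 to 0.03) to 0.06 for Mxd1 (95% interval -0.10 to 0.22). Single libraries moved these values too, that of Mycn to -0.10 without high-MYC replicate 2 and that of Mxd1 to -0.0055 without low-MYC replicate 1 and 0.14 without low-MYC replicate 2. That of Mlx was -0.054 without low-MYC replicate 1. That of Mga, -0.08, was -0.030 without low-MYC replicate 2 and -0.035 without high-MYC replicate 1, and -0.13 without either of the others. That of Mnt, -0.03, was 0.0060 without high-MYC replicate 2 and -0.069 without high-MYC replicate 1.

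**Figure D2:**
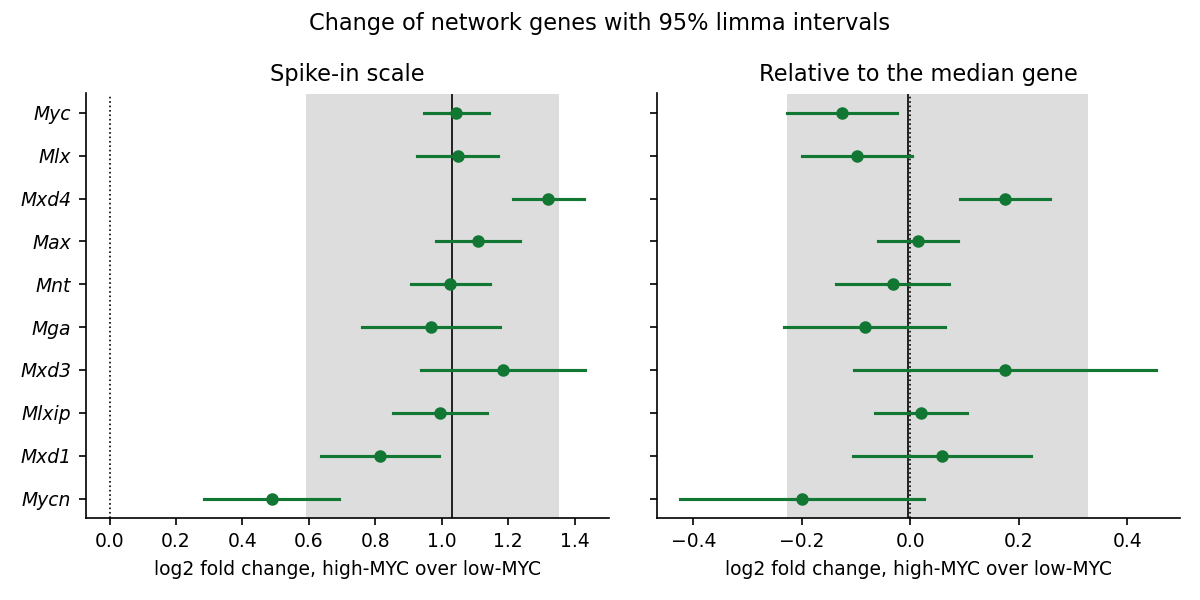
Log2 fold change of each network gene, high-MYC over low-MYC, on the spike-in scale (left) and relative to the median gene (right), as points with 95% limma intervals (2 libraries a group). The grey band spans the 5th to 95th percentile of all 11870 tested genes (0.59 to 1.35 and -0.23 to 0.33), the solid line is their median and the dotted line is 0. On the left all intervals lie above 0, and on the right that of Mxd4 (0.17) lies above 0 and that of Myc (-0.13) below it.

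Ratios between 2 members of the same library do not depend on the spike-in score. The ratio of Myc to Max was 11.1 and 10.9 in the low-MYC replicates and 10.2 and 9.76 in the high-MYC ones, a log2 difference of -0.14. The ratio of Myc to the sum of Mxd1, Mxd3, Mxd4 and Mnt was 2.83 and 2.86 against 2.39 and 2.33, a log2 difference of -0.27. Both ratios were lower in the high-MYC libraries without overlap. The same sum over Max was 3.93 and 3.81 against 4.26 and 4.19, a log2 difference of 0.13. Mxd4 over Max was 2.65 and 2.61 against 2.98 and 2.91, a log2 difference of 0.16. In these libraries the summed antagonist mRNA was therefore higher for each unit of Max and of Myc mRNA in the high-MYC group. Each of these ratios had p = 0.333 in a two-sided exact permutation test, the smallest p that 2 libraries against 2 allow. Mxd4 was the largest part of the antagonist sum, and the other parts did not all move with it. Relative to the median gene, in log2 units, Mxd4 stood at 0.17, Mxd3 at 0.17 with an interval spanning 0, Mxd1 at 0.06 and Mnt at -0.03. The sum leaves out Mxi1, which stood at -0.12. Of the other ratios computed, Mlxip over Mlx (0.127 and 0.138 against 0.144 and 0.144) and Mlx over Max (2.81 and 2.66 against 2.52 and 2.52) also had p = 0.333 in the exact permutation test. Mycn over Myc and Mga over Max overlapped between the groups (p = 0.667, exact permutation test). Adjusted over the 8 ratios by Benjamini-Hochberg, these exact permutation values were 0.444 and 0.667. With 0.1 added to each level the log2 difference of Mlxip over Mlx turned from 0.12 to -0.052, that of Myc over Max shrank from -0.14 to -0.065 and that of Mlx over Max from -0.12 to -0.062, while that of Mycn over Myc grew from -0.22 to -0.56.

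**Figure D3:**
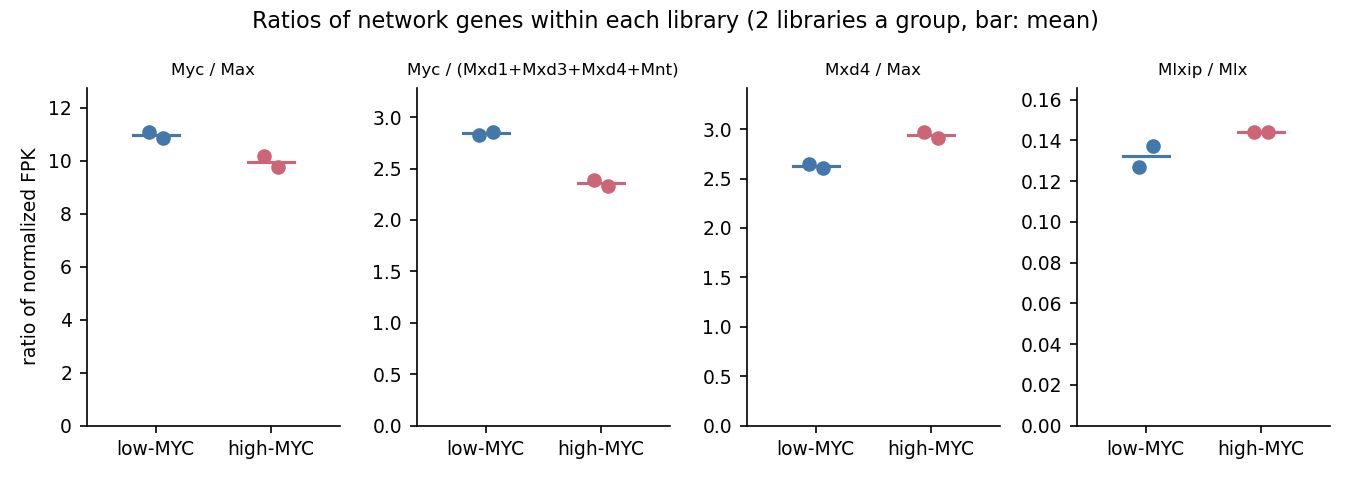
Ratios of normalized FPK between network genes within each RNA-seq library, on linear axes from 0, with 2 low-MYC (blue) and 2 high-MYC (red) libraries as points and the mean as a bar. Myc over Max and Myc over the summed antagonists lie lower in both high-MYC libraries, and Mxd4 over Max and Mlxip over Mlx lie higher, the last only without a pseudocount (-0.052 in log2 units with 0.1 added).

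Of the family members outside the 10 genes, Mycl and Mxi1 were in the table, and Mlxipl was not analysed here. Mycl, the paralog known from lung and dendritic cells, measured 0.591 and 0.609 at low MYC and 0.988 and 0.926 at high MYC. Its ratio of means was 1.59, below that of each of the 10 members. Its relative log2 fold change was -0.45 (95% interval -0.62 to -0.28, adjusted p = 0.0269, limma with Benjamini-Hochberg), which passed 0.05 and not 0.01. It did not pass 0.05 without either low-MYC replicate (adjusted p 0.0298 to 0.0770 with each library left out, limma with Benjamini-Hochberg), and with a pseudocount of 1 the value was -0.22. Mxi1, a further MXD gene, measured 0.108 and 0.106 against 0.207 and 0.217, and its relative log2 fold change was -0.12 (adjusted p = 0.135, limma with Benjamini-Hochberg).

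Genes for the cofactors that this network recruits were higher as well, as were 97.1% of tested genes. Of the MYC coactivators, 10 of 10 were called higher on the spike-in scale with a median log2 fold change of 1.07, and the highest value was 1.20 for the acetyltransferase Kat2a. The SIN3 and HDAC corepressors were called higher in 10 of 10 cases with a median of 1.10, from 0.83 for Sap30 to 1.24 for Rbbp7, both subunits of SIN3 complexes. The PRC1.6 partners of MGA were called higher in 10 of 10 cases with a median of 0.99, from 0.71 for Tfdp2 to 1.32 for Tfdp1, both dimer partners of E2F factors. The value of Tfdp2 is narrowed by the pseudocount of 0.1, since its group means were 0.0941 at low MYC and 0.218 at high MYC. Its low place in the list therefore depends on the pseudocount. None of these 30 genes passed 0.01 against the median gene (limma with Benjamini-Hochberg), against 2.29% of tested genes, and 7 of them had an unadjusted p under 0.05, against 33.1%.

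Among 20 textbook MYC targets, 20 were called higher on the spike-in scale, against 97.1% of tested genes, with a median log2 fold change of 1.09 beside 1.03 for all tested genes. They ran from 0.69 for Tfrc, the transferrin receptor, to 1.34 for Srm, the spermidine synthase. Against the median gene the median of the list was -0.08, and 0 of the 20 passed 0.01, against 2.29% of tested genes. An unadjusted p under 0.05 was reached by 8 of the 20, against 33.1%. Tfrc came closest, at 3.36 and 3.65 against 5.39 and 6.06 in normalized FPK and a relative log2 fold change of -0.46 (adjusted p = 0.0146, limma with Benjamini-Hochberg). The MondoA and MLX targets Txnip and Arrdc4, an inhibitor of thioredoxin and its arrestin-domain relative, had log2 fold changes of 1.14 and 1.10, and relative ones of -0.04 and 0.01.

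Many genes followed the pattern of Myc, whose log2 fold change lay at percentile 53.1 of all tested genes. Nearness to Myc thus largely means a change close to that of the median tested gene. Distances were Euclidean over the 4 libraries, between values of log2(normalized FPK + 0.1) centred per gene. The nearest were Ppp6r1, Pi4kb, Tyk2, D230025D16Rik and Nop2, at distances of 0.00561 to 0.0111, and 488 of the 11870 tested genes lay within 0.05. With this pseudocount, which narrows the changes of low genes, Mnt was the nearest member at 0.0270, as the 99th gene in order. Mlx (0.0536), Mlxip (0.0677) and Max (0.0782) came next among the members, and Mycn (0.573) was the furthest. The order depends on the pseudocount. By the ratio of means without it, Mlx (2.11) and Mga (2.12) stood nearer to Myc (2.07) than Mnt (2.21) did.

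The TACh-seq table held 4881417 reads, and read ends within 1 kb of the start of each gene were counted. Of 10261 expressed protein-coding genes, 84.8% had at least 1 such read, with a median of 140 and quartiles of 86 and 215. All 10 network genes had reads, and 8 of the 10 lay above the upper quartile. Mnt had the most, 585 (95% Poisson interval 539 to 634), at percentile 99.2 of expressed coding genes. Mxd4 (410), Mxd1 (400) and Max (394) followed at percentiles of 95.7 to 96.2, and their Poisson intervals overlapped one another. Intervals cover counting error only and treat reads as independent, although reads can share a 5′ position. Mlxip had 323 reads at percentile 91.5. Myc had 226 (95% Poisson interval 197 to 257), next to Mxd3 with 224 and Mga with 217. The Poisson intervals of these 3 overlapped and included the upper quartile of 215, so their place above it is not resolved. Mlx (132) and Mycn (93, 95% Poisson interval 75.1 to 114) lay below the median. The libraries behind these reads are not told apart, so the counts carry no replicate error.

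**Figure D4:**
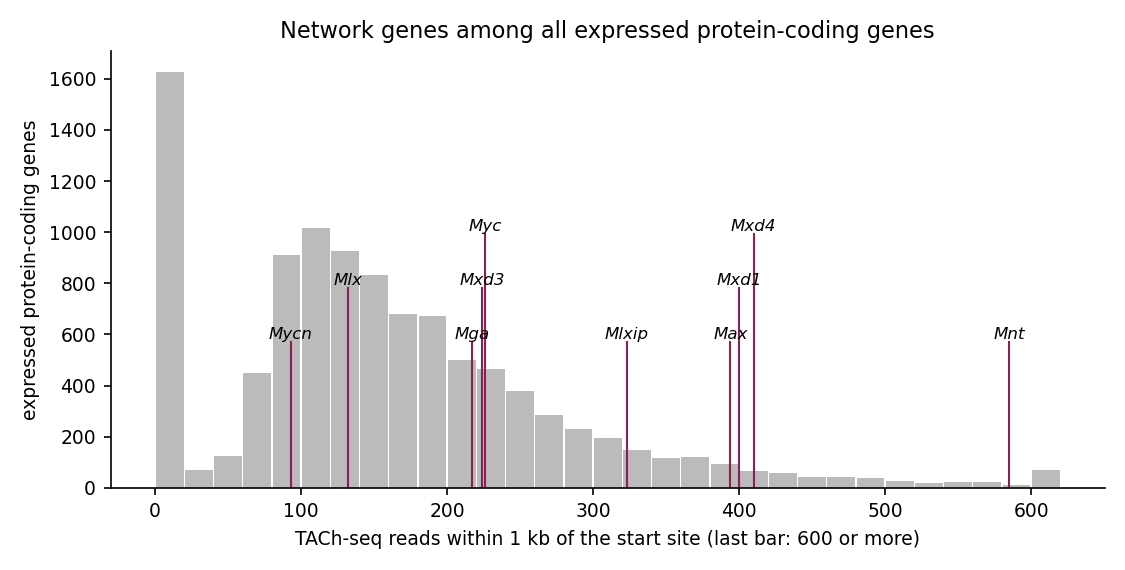
Distribution of TACh-seq reads within 1 kb of the start site over 10261 expressed protein-coding genes (grey bars, 20 reads wide), with the 10 network genes as labelled lines whose height carries no value. Mycn (93) and Mlx (132) lie below the median of 140, and the other 8 lie above the upper quartile of 215, up to Mnt with 585.

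The number of reads and the mRNA level ran in different orders. Myc had the highest mRNA level of the network and the sixth highest read count, whereas Mxd1, with the second lowest mRNA level, had the third highest. Spearman's rho between reads and mean normalized FPK was 0.24 over the 10 genes and 0.21 over the 10261 expressed coding genes, given as a description of points that share one read table.

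In most members the reads lay ahead of the start site. The share of reads upstream of the start was above the 48% median of expressed coding genes in 9 of the 10, and was highest in Mxd1 (92.8%), Mlxip (84.2%) and Mnt (82.6%). Mga was the exception at 42.4%. The densest 100 bp lay upstream in 7 genes, at positions -700 to -600 in Mycn (14 reads), -500 to -400 in Mnt (110), -300 to -200 in Mxd1 (88), Mxd4 (81) and Mxd3 (44), and -200 to -100 in Max (63) and Mlxip (69). In Myc the densest 100 bp lay 100 to 200 bp after the start and held 29 reads, and further reads were spread over the gene. In Mlx (30) and Mga (50) it was the first 100 bp after the start. The count of 7 has no share over expressed coding genes beside it and describes these members only.

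**Figure D5:**
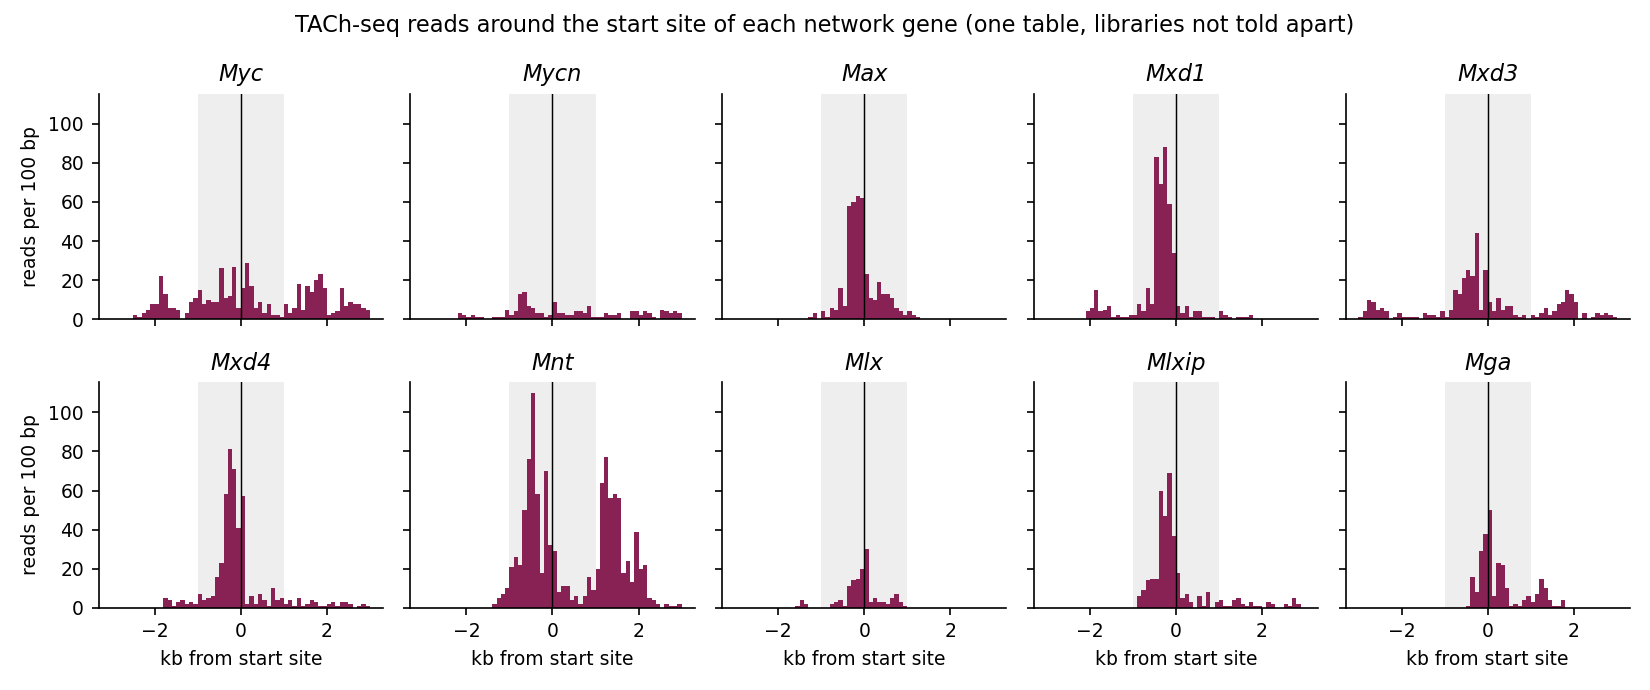
TACh-seq reads per 100 bp from 3 kb before to 3 kb after the start site of each network gene, in the direction of transcription, with the 1 kb on each side shaded. Mxd1, Mxd4, Max and Mlxip show a compact block just before the start, Mnt blocks on both sides of it (up to 110 reads per 100 bp), Myc a broad low profile, and Mycn few reads at any position.

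Reads separated by at most 200 bp were merged into islands, over each gene and 10 kb before it. An island covered the start site in all 10 genes, and in 6 genes it was the only one. These counts too have no share over expressed coding genes beside them. The island over the Mnt start held 1135 reads in 5623 bp, and a second, from 6165 to 8674 bp inside the gene, held 410. The island over the Myc start ran from position -2408 to 3386 bp relative to it and held 529 reads, and a small one of 27 reads followed at 3604 to 4387 bp. At Mlx the island over the start held 132 reads, and another one upstream with 195 reads covered the start of Coasy, a neighbouring coding gene.

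The E-boxes printed above lay within these accessible stretches. Within 100 bp of the E-box lay 154 read ends in Mxd4, where the motif falls in the densest 100 bp, 118 in Max, 93 in Mnt and 58 in Mlx. The variant E-box of Mga had 87. At the E2F-type letters of Mycn there were 3 to 5. No start of another gene lay within 1 kb of any member. Members have several annotated starts, and their counts differed. Of these, 8 of 12 starts of Mga, 3 of 7 of Max and 2 of 4 of Mlxip had 0 reads within 1 kb, whereas all 6 starts of Myc had 186 to 226. Taken at the start with the fewest reads, 2 of the 10 genes lay above the median coding gene in place of 8. A count of 0 in a table limited to accessible regions gives no upper bound.

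The FUBP1 peak list covered chromosome 15 only, with 166 peaks, so among the 10 genes it could be read for Myc alone. FUBP1 is a single-strand DNA-binding protein known from human cells to act at an element upstream of MYC. The authors describe that element as only partly conserved in mice. They report a candidate mouse element upstream of the Myc start, where FUBP1 binding had a local maximum and the DNA was predicted to melt. They also report some cross-reaction of the ChIP antibody with FUBP2, and a ChIP-PCR signal at Myc that was weaker in Fubp1 knockout than in WT cells. Here 1 peak ran from 410 to 1809 bp after the start of Myc (chr15:61985801-61987200) and held 118 TACh-seq reads, or 84.3 per kb. Another ran from 3810 to 5609 bp after the start (chr15:61989201-61991000) and held 24 reads, or 13.3 per kb. Both were called in 1 sample and have no score, so they could not be ranked.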

How the data were processed

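RNA-seq (4 libraries), TACh-seq (4 samples, 1 read table) and FUBP1 ChIP-seq (1 sample) of mouse MEFs were taken as deposited, and groups came from the sample labels. The network genes and the gene lists were chosen with earlier results of these data known.

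The authors' RNA-seq reads were cut at 3′ bases of poor quality, mapped with TopHat to mouse transcripts (mm10), quantified with Partek E/M, and divided by transcript length and by the ERCC spike-in score. The deposited signal values (normalized FPK) are therefore relative to cell number. The depth of the libraries is not given, and near-identical or overlapping genes are uncertain. For TACh-seq and ChIP-seq the authors used Bowtie2 on mm10, and SICER for peaks. The deposited read table gives positions, aligned lengths and a mapping score per read (11 to 42). Reads can share their 5′ position and strand. Of the 585 reads within 1 kb of the Mnt start, 377 were distinct by 5′ position and strand. Versions are not given in the sources used here.

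Values were compared as log2(normalized FPK + 0.1) with limma 3.58.1 (lmFit, eBayes with trend) in R 4.3.3, over 11870 genes with a mean of at least 0.1, with Benjamini-Hochberg adjustment over all of them, before and after scaling libraries to the same median. A fold change on this scale understates that of low genes. The procedure was tested on simulated data. Rough fragment numbers are the level times the longest transcript, divided by the estimated value of 1 fragment. Starts are the 5′ ends of genes in the expression table, and identifiers come from GENCODE M21. Named genes are the 10 members, 3 other network genes, the highest and lowest log2 fold change of each pathway list, and the 5 genes nearest to Myc. A gene that this rule names is not reported here. Promoter genes, neighbours and marker genes named besides were chosen after their values were seen. Alternatives covered the pseudocount, the filter, the scaling, the limma trend, the replicate block, each replicate left out, the read window, mapping score, start choice and island gap. Other steps ran in Python 3.11.15 with scipy 1.17.1, numpy 2.4.6 and pandas 2.3.3, and plots were drawn with matplotlib 3.10.9. A protein sequence comparison is not analysed here.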

Additional observations from a re-analysis of the deposited data

How the results depend on the processing

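Of 327 alternative values, 61 of those on the main comparisons and 236 of those on single genes or medians kept their direction and call or moved within the replicate spread. The scaling mattered most. With libraries set to the same median, 0 members were called, and 0 genes of the other network, coactivator, corepressor, PRC1.6, MYC target and MondoA target lists. The log2 fold change then turned to -0.13 for Myc, -0.20 for Mycn, -0.033 for Mnt, -0.10 for Mlx and -0.084 for Mga. Such scaling takes out the difference between the library medians. Against the median gene, 1 member (Mxd4) was called at an adjusted p of 0.05 in place of 0.01 (limma with Benjamini-Hochberg). With a pseudocount of 0.1 in the ratios, the log2 difference was -0.065 for Myc over Max, 0.19 for the summed antagonists over Max, 0.21 for Mxd4 over Max, -0.56 for Mycn over Myc, -0.052 for Mlxip over Mlx, which was positive without it, and -0.062 for Mlx over Max. Counting reads at the annotated start with the fewest reads left 2 members above the median coding gene in place of 8. The same replicate numbers did not pair the libraries (r = 0.08 between deviations across 11870 genes). With a replicate block, 11602 genes were higher and 5 lower on the spike-in scale, and 0 genes passed 0.01 against the median gene (limma, 4617 at an unadjusted p under 0.05), in place of 272, while no call on a member changed. Members with few fragments, above all Mycn, are the least precise, and TACh-seq counts have no replicate error.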
